A study of Mus musculus with 5 samples.

Results

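In mouse embryonic stem cells labelled as overexpressing hexokinase 2 and pyruvate kinase M2, 83 genes stood at least 2-fold away from normal cells in the same direction in both cultures that were sequenced from each cell type. They were selected on that difference, out of 8543 autosomal genes with a mean of at least 1 FPKM over the 5 libraries and a value above 0 in every one. FPKM is a level per transcript length and per mapped fragment of a library, here summed over the RefSeq transcripts of a gene. The selection took the ratio of FPKM + 1 on the log2 scale, at 1 or more or at -1 or less in each culture. It gave 25 genes that were higher in the labelled cells (0.293% of the genes that could have been chosen) and 58 that were lower (0.679%). A further 8 genes met the same criteria but were left out by name and are not counted here. The size and direction of these ratios are what chose the genes, so they are given as a description with no test.

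The cells are E14, a line of mouse embryonic stem cells, for which the labels give the strain C57BL/6. The groups are normal cells cultured with leukemia inhibitory factor (LIF, the cytokine that keeps mouse embryonic stem cells undifferentiated), normal cells deprived of LIF for 24 hours before it was added back, cells labelled Hk2/Pkm2 in each of these cultures, and cells labelled Hk2/Pkm2 after 40 days without LIF. Each group is 1 library, so the spread between replicates is unknown for every difference below. The labels do not say how the enzymes were overexpressed, or whether the labelled cells are 1 clone.

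Depth was estimated at 34000000 to 41000000 fragments per library, and 9032 to 9861 genes reached 1 FPKM. Hk2 stood at 76.2 and 49.7 FPKM in the normal libraries and at 98.6 and 59.0 FPKM in the labelled ones. Pkm, the gene of pyruvate kinase M2, stood at 510 and 611 FPKM against 567 and 564 FPKM, a value for the gene as a whole and not for M2 alone. The log2 ratios of FPKM + 1 were 0.37 and 0.24 for Hk2 and 0.15 and -0.11 for Pkm. Neither gene was thus 2-fold higher in the labelled libraries. The 6 stem cell markers looked up (Pou5f1, Sox2, Nanog, Zfp42, Esrrb, Utf1) summed to 2288 and 2237 FPKM in normal and labelled cells with LIF, 1900.03 and 1923 FPKM after withdrawal and 1289 FPKM at 40 days. Among them Zfp42 stood at 266 and 278 FPKM with LIF, 118 and 128 FPKM after withdrawal and 40.9 FPKM at 40 days. Of the 7 fibroblast markers 5 or 6 were below 1 FPKM in each library, the collagen genes Col1a1, Col1a2 and Col3a1 in all 5. The exceptions were Vim, at 100.4 and 144 FPKM in normal and labelled cells with LIF and 44.6 and 37.5 FPKM after withdrawal, and Thy1, at 0.792 and 2.54 FPKM with LIF and 1.27 and 4.32 FPKM after it. At least 4 of the 5 trophoblast markers were below 1 FPKM in each library. The libraries also differ in 2 ways that the labels do not give. Of 4 Y-linked genes, Ddx3y stood at 11.8 FPKM in both normal libraries, at 0.0225 and 0.0130 FPKM in the labelled libraries and at 1.79 FPKM at 40 days. Uty was likewise at 3.25 and 3.74 FPKM against 0.00973 and 0.0113 FPKM, with 0.369 FPKM at 40 days. Eif2s3y stood at 34.1 and 35.1 FPKM against 16.3 and 22.6 FPKM and was lowest at 40 days, at 4.58 FPKM, and Kdm5d was listed at 0 in the 4 libraries of the ratios. The 7 markers of extraembryonic endoderm summed to 103 FPKM at 40 days and to between 2.91 and 5.004 FPKM elsewhere, with Afp listed at 0 in all 5 libraries. The part of either difference in the results below was not tested. In libraries of bulk RNA, fewer cells of a type and less RNA per cell cannot be told apart.

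The genes belong to several parts of cell biology. Securin, the product of Pttg1, holds the protease separase inactive until anaphase, when its destruction lets sister chromatids part. The oxidoreductase Chchd4 introduces disulfide bonds into proteins entering the intermembrane space of mitochondria and so traps them there. RNA polymerases I and III, which make ribosomal and transfer RNA, share the subunit Polr1c, and Kmt5a places the single methyl group on lysine 20 of histone H4.

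Pttg1, on mm9 at chr11:43233752-43239753, had the largest consistent difference of the higher genes. It stood at 8.12 and 7.82 FPKM in the normal libraries (with LIF and after withdrawal, the order used throughout) and at 58.9 and 61.1 FPKM in the labelled ones, which is 7.25 and 7.81 times as high. At 40 days it stood at 16.6 FPKM, between the cell types. Both of its transcripts in the table were higher in the labelled cells, the main one at 7.59 and 7.26 FPKM against 55.5 and 58.1 FPKM.

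Mydgf encodes a secreted growth factor first described in bone marrow cells. It stood at 6.19 and 8.43 FPKM in the normal libraries, 34.1 and 33.4 FPKM in the labelled ones and 31.1 FPKM at 40 days. Ntpcr, a nucleoside triphosphatase, stood at 1.93 and 1.86 FPKM against 9.67 and 10.7 FPKM, with 9.36 FPKM at 40 days. Metap2, an aminopeptidase that removes the first methionine from new proteins, stood at 11.2 and 13.1 FPKM against 35.8 and 38.3 FPKM, with 34.5 FPKM at 40 days. For these 3 genes the 40-day library, which took no part in the ratios, lay close to the other labelled libraries. The coding sequence of Metap2 has a second match in mm9 at 96.55% identity over 92.7% of its length, so fragments from that place could have been counted with it.

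Chchd4 was the lower gene with the largest consistent difference. It stood at 72.7 and 63.5 FPKM in the normal libraries, 13.3 and 13.2 FPKM in the labelled ones and 12.8 FPKM at 40 days. Polr1c stood at 109 and 108 FPKM against 24.4 and 26.01 FPKM, with 27.3 FPKM at 40 days. Kmt5a stood at 40.3 and 41.7 FPKM against 10.8 and 10.6 FPKM, but at 44.3 FPKM at 40 days. The 40-day library thus lay with the labelled libraries for Chchd4 and Polr1c and with the normal libraries for Kmt5a. Kmt5a also has a match elsewhere in mm9, at 95.48% identity over 84.7% of the coding sequence.

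**Figure D1:**
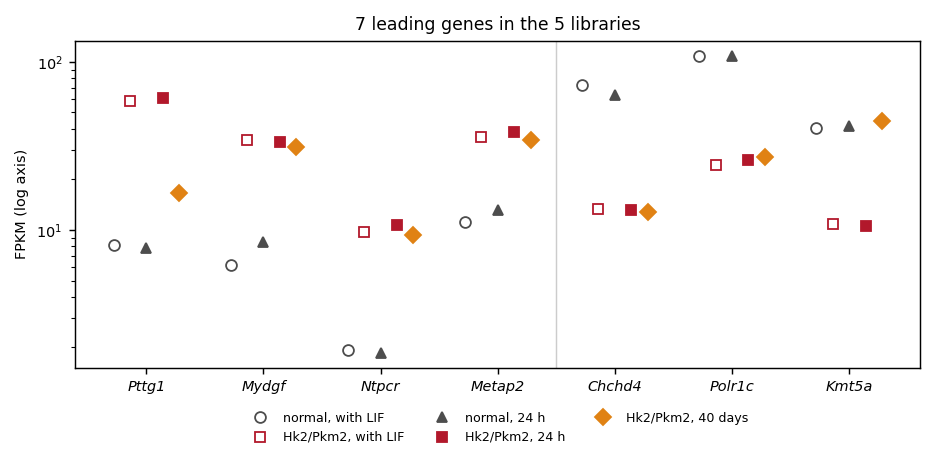
FPKM (log axis) of 4 higher and 3 lower genes, with 1 point for each library and no error bars, since each group is 1 library. The 2 libraries of a cell type lie close to each other for every gene, while the 40-day point lies near the labelled libraries for Mydgf, Ntpcr, Metap2, Chchd4 and Polr1c, between for Pttg1 and near the normal libraries for Kmt5a.

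The promoters of 4 of these genes are shown because they are among the leading genes of each direction and carry different elements. The sequences are from RefSeq on GRCm38.p6, 250 bases before to 50 after the start of a transcript, written 5′ to 3′ along the gene. Capitals mark a match, on either strand, to 1 of 9 elements searched. The letters TATAAA stood for the core of the TATA box, CCAAT for the box of that name, and GGGCGG for the GC box. The E-box was searched as CACGTG, the cyclic AMP response element as TGACGTCA, and the element of STAT factors as TTCNNNGAA. The TEAD element was searched as GGAATG, the ETS element as CCGGAAG, and the YY1 element as AAGATGG. Neighbouring matches can overlap.
Pttg1 (chr11:43425932-43426231, minus strand): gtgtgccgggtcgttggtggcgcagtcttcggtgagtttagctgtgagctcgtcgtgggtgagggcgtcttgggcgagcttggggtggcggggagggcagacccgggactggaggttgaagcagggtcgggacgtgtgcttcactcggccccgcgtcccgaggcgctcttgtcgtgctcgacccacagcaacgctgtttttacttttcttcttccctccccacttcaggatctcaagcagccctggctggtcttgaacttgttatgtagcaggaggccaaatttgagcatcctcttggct
Mydgf (chr17:56183871-56184170, minus strand): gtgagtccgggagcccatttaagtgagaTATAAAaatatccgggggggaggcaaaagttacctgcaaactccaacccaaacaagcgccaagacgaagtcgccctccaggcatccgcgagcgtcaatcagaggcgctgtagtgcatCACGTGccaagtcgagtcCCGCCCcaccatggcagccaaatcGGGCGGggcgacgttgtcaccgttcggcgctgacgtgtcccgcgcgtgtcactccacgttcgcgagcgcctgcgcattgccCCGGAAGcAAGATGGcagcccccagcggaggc
Chchd4 (chr6:91473374-91473673, minus strand): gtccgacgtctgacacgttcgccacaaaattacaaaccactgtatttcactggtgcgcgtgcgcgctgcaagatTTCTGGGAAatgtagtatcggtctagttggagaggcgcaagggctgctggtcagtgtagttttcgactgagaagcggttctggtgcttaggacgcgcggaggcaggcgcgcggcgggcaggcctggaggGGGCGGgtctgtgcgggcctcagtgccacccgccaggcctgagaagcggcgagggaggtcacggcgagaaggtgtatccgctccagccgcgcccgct
Polr1c (chr17:46247996-46248295, minus strand): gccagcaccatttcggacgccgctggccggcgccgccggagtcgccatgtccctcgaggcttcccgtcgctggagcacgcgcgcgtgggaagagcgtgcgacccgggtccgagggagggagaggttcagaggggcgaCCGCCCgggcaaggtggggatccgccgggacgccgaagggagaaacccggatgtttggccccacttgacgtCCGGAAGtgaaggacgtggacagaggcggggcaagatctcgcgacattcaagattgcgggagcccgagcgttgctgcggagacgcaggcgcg
The Pttg1 window held none of the 9 elements. That of Mydgf held a TATA box core, 2 GC boxes, an E-box, an ETS element and a YY1 element. Chchd4 had a GC box and a STAT element, and Polr1c a GC box and an ETS element. These are matches of letters and not sites of binding.

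Promoters of the same length were found for 20 of the higher genes (24 promoters) and 46 of the lower genes (57 promoters). GC boxes were in 66.7% of the higher and 64.9% of the lower promoters, beside 66.6% of the 8618 promoters of genes that met the filters and 35.7% of all promoters. CCAAT boxes were in 58.3% and 42.1%, beside 39.4% and 37.4%. E-boxes were in 6 of 24 and 15.8% (9 of 57), beside 10.7% and 7.2%. The STAT element was in 12.5% and 3.5%, beside 6.6% and 8.3%, and the TEAD element in 20.8% and 10.5%, beside 11.8% and 14.7%. The ETS element was in 12.5% and 12.3%, beside 19.9% and 8.9%, the YY1 element in 12.5% and 1.8%, beside 7.7% and 6.3%, and the TATA box core in 12.5% and 5.3%, beside 6.3% and 13.6%. A cyclic AMP response element was in 0 of 24 and 1 of 57, beside 3.5% and 1.8%. The median number of CpG dinucleotides per promoter was 18.5 for higher and 21 for lower genes, beside 22 for genes that met the filters.

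Among the higher genes, 7 encode proteins of chromosome segregation, DNA repair or the cell cycle. This grouping by role, like those that follow, was made after the values were seen. The share of each role among all 8543 genes was not counted, so the sizes of the groups cannot be read as an excess of any role. Cenpm, a centromere protein, stood at 3.98 and 3.24 FPKM in the normal libraries, 12.9 and 10.5 FPKM in the labelled ones and 14.4 FPKM at 40 days. Sgo1 (shugoshin), which protects centromeric cohesin from early removal, stood at 7.37 and 7.76 FPKM against 22.0 and 16.8 FPKM. Nipbl, the loader of cohesin onto chromosomes, stood at 4.17 and 5.37 FPKM against 12.9 and 14.7 FPKM. In all 3 the 40-day library was above both normal libraries.

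Ppp1cb, a catalytic subunit of protein phosphatase 1, stood at 9.82 and 26.7 FPKM in the normal libraries, 83.04 and 78.7 FPKM in the labelled ones and 101 FPKM at 40 days. The ratio between cell types was thus 8.46 with LIF and 2.95 after withdrawal, because the normal libraries differ from each other. Usp1, a deubiquitinase of the Fanconi anaemia and PCNA pathways, stood at 12.3 and 17.3 FPKM against 31.5 and 39.2 FPKM, with 9.27 FPKM at 40 days, below both normal libraries. Cinp, a partner of cyclin-dependent kinase 2, stood at 5.76 and 4.81 FPKM against 12.7 and 11.97 FPKM. Of the 34 regulators of anaphase that met the filters (separase, the anaphase-promoting complex, cohesin and the spindle checkpoint), Pttg1 and Nipbl were at least 2-fold higher in both cultures and 0 were lower. This list and those that follow were drawn up with earlier results known, so the presence of a member in a list adds no support. The median log2 ratio of the list was 0.09 with LIF and 0.05 after withdrawal, beside -0.05 and -0.02 over all genes that met the filters.

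The higher genes also held Mbd2 and Mbd3, which carry the methyl-CpG-binding domain. Mbd3, a subunit of the NuRD chromatin complex, stood at 24.9 and 29.6 FPKM in the normal libraries and 64.6 and 83.3 FPKM in the labelled ones. At 40 days it stood at 63.1 FPKM. Mbd2, which binds methylated DNA, stood at 1.56 and 1.73 FPKM against 5.41 and 5.37 FPKM, with 1.43 FPKM at 40 days. The labelled libraries were above the normal ones for both, and the 40-day library lay with the former for Mbd3 and with the latter for Mbd2. Tnrc6b, a partner of Argonaute proteins in silencing by microRNAs, stood at 0.717 and 0.586 FPKM against 2.74 and 3.63 FPKM, with 4.81 FPKM at 40 days.

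Mitochondrial proteins among the higher genes were Grpel1, Eci2 and Adck1. Grpel1, the nucleotide exchange factor of the import motor, stood at 5.89 and 7.17 FPKM against 13.3 and 25.2 FPKM, with 12.9 FPKM at 40 days. Its exons share 411 bases (11.65%) with Tada2b on the other strand, and the library kit does not mark strand, so part of its value could be that gene's. It was the only 1 of 20 genes of mitochondrial protein import that met the selection (list medians -0.01 and 0.09). Adck1 stood at 1.45 and 1.39 FPKM against 6.79 and 7.18 FPKM, with 4.33 FPKM at 40 days. Eci2, an enoyl-CoA isomerase of fatty acid oxidation, stood at 3.03 and 1.92 FPKM against 7.54 and 5.39 FPKM.

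Secretion and transport were represented by 4 higher genes, Mydgf among them. Rrbp1, a ribosome-binding protein of the endoplasmic reticulum, stood at 6.93 and 3.72 FPKM in the normal libraries, 20.3 and 19.1 FPKM in the labelled ones and 4.71 FPKM at 40 days. Slc38a4, a transporter of neutral amino acids, stood at 4.25 and 5.52 FPKM against 11.3 and 14.5 FPKM. At 40 days it stood at 48.1 FPKM, farther outside the range of the other 4 libraries than any other higher gene (1.66 on the log2 scale). Trh, the precursor of thyrotropin-releasing hormone, stood at 160.4 and 28.5 FPKM against 364 and 101 FPKM, with 32.9 FPKM at 40 days.

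Of the remaining 8 higher genes, Metap2 was the single member among 14 genes of N-terminal processing (list medians -0.05 and 0.06). Dnaaf2, which assembles dynein arms of cilia, stood at 2.44 and 2.73 FPKM against 9.35 and 11.02 FPKM, with 2.09 FPKM at 40 days. Spryd4 stood at 5.29 and 4.59 FPKM against 19.4 and 15.1 FPKM, with 3.24 FPKM at 40 days. Both were thus below the normal libraries at 40 days. Crabp1, which binds retinoic acid, stood at 4.74 and 3.59 FPKM against 14.1 and 8.33 FPKM. Zfp987, a zinc finger gene, stood at 5.48 and 7.35 FPKM against 20.4 and 22.6 FPKM, but its coding sequence has 4 further matches in mm9 at 95.9% to 99.44% identity, so its values are uncertain. Just inside the limit were Cinp, Tbccd1 and Ube3a. Tbccd1 stood at 1.90 and 1.85 FPKM against 5.26 and 4.74 FPKM, and the ubiquitin ligase Ube3a at 7.46 and 7.10 FPKM against 15.9 and 16.1 FPKM, with log2 ratios of 1.001 and 1.07. Just outside it were Thy1 at 0.98 and 1.23, Dennd2c at 0.97 and 1.18 and Trf at 1.99 and 0.97.

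**Figure D2:**
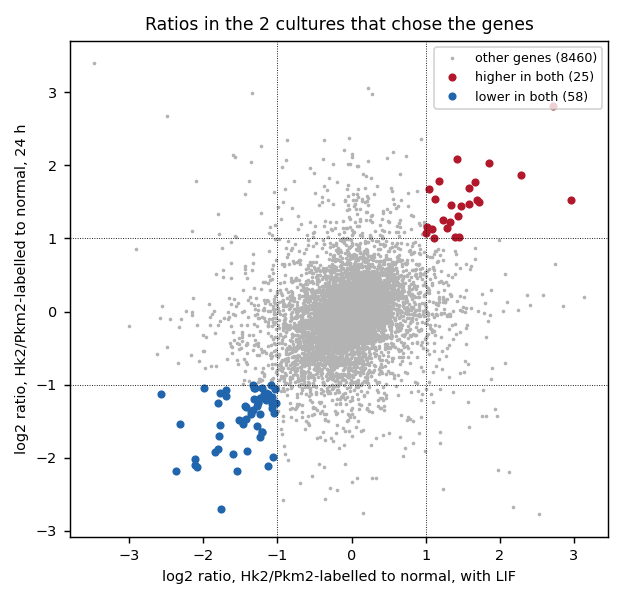
Log2 ratio of FPKM + 1 between Hk2/Pkm2-labelled and normal cells, with LIF on the x axis and after 24 hours of withdrawal on the y axis, for the 8543 genes that met the filters. Dotted lines mark the limits of 1 and -1 that chose the 25 higher (red) and 58 lower (blue) genes, which fill the upper right and lower left corners by construction.

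Transcription and chromatin proteins made up 9 of the lower genes, headed by Polr1c and Kmt5a. Polr1c was the only 1 of 25 subunits and factors of RNA polymerases I and III to meet the selection (list medians 0.02 and 0.02). Kmt2b, a methyltransferase of lysine 4 of histone H3, stood at 18.1 and 14.2 FPKM in the normal libraries, 2.21 and 5.92 FPKM in the labelled ones and 9.80 FPKM at 40 days. It and Kmt5a were 2 of 18 histone lysine methyltransferases (list medians 0.03 and -0.06). Both list medians lay near 0, as did that of all genes.

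Zfp229, a zinc finger gene, stood at 6.24 and 6.57 FPKM against 0.673 and 0.769 FPKM, with 4.53 FPKM at 40 days. Hmgxb4, an HMG-box protein, stood at 45.5 and 47.8 FPKM against 12.5 and 15.7 FPKM, with 8.51 FPKM at 40 days. Dppa3 (Stella), which protects maternal DNA methylation in the zygote, stood at 6.15 and 4.81 FPKM against 1.49 and 1.07 FPKM, with 0.542 FPKM at 40 days. The group also held Baz1a of the ACF remodelling complex, the poly(A) polymerase Papolg and the splicing factor Wbp4, and folds in it ran from 2.31 to 9.28. At 40 days 7 of the 9 were below both normal libraries.

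Mitochondrial, redox and lipid proteins made up 7 lower genes. Chchd4 was the only 1 of 27 genes of the disulfide relay and its substrates to meet the selection. The list's median log2 ratio was -0.19 with LIF and -0.06 after withdrawal, and 20 of the 27 lay below 0 in each culture, beside 4783 and 4565 of all 8543 genes. Cbr3, a carbonyl reductase, stood at 23.8 and 27.4 FPKM in the normal libraries, 10.7 and 13.1 FPKM in the labelled ones and 4.29 FPKM at 40 days. Slc27a2, which activates very long chain fatty acids, stood at 13.1 and 17.0 FPKM against 5.43 and 3.16 FPKM, with 13.6 FPKM at 40 days. Pltp, the phospholipid transfer protein, stood at 29.7 and 10.6 FPKM against 10.4 and 3.72 FPKM, with 21.1 FPKM at 40 days. It shares 495 exon bases (19.32%) with Ctsa on the other strand. The group was completed by Acot13, Stard3nl and the xylulose reductase Dcxr.

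Signalling proteins were the largest named group of the lower genes, with 12 members and folds of 2.23 to 7.25. Fgfbp1, which carries fibroblast growth factors away from the matrix, stood at 29.0 and 40.6 FPKM in the normal libraries, 9.24 and 8.16 FPKM in the labelled ones and 5.88 FPKM at 40 days, the lowest of the 5. Sh2b1, an adaptor of receptor kinases, stood at 13.8 and 16.6 FPKM against 3.28 and 4.38 FPKM, with 3.34 FPKM at 40 days. Its values depend on the division of fragments between its transcripts, given below. Stim1, the calcium sensor of the endoplasmic reticulum, stood at 3.03 and 6.15 FPKM against 0.520 and 0.893 FPKM. At 40 days it stood at 9.82 FPKM, above all other libraries. Ligands in the group were Pdgfc (5.85 and 6.63 against 1.66 and 1.98 FPKM) and the Notch ligand Jag2 (6.66 and 6.41 against 0.918 and 2.60 FPKM). Further members were the kinase Mapkapk3, the adaptors Traf4 and Nsmaf, the GTPase Rala, the guanine nucleotide exchange factor Net1 and Lamtor1, an anchor of mTORC1 signalling at lysosomes.

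The epithelial and cytoskeletal group held 9 lower genes. Ap1m2, the adaptor subunit that sorts proteins to the basolateral membrane of epithelial cells, stood at 19.6 and 22.2 FPKM in the normal libraries, 3.84 and 4.32 FPKM in the labelled ones and 19.8 FPKM at 40 days. Anxa3, a calcium-dependent membrane-binding protein, stood at 6.79 and 8.73 FPKM against 1.29 and 0.491 FPKM, with 12.8 FPKM at 40 days. Cldn6, a claudin of tight junctions, stood at 12.2 and 34.5 FPKM against 1.66 and 11.2 FPKM, with 78.7 FPKM at 40 days. The group also held Fam83h, Frem2, Palm3, Smtnl2 and the calcium-binding S100a13, and folds in it ran from 2.10 to 17.8, the largest being that of Anxa3 after withdrawal. That fold rests on a labelled value of 0.491 FPKM, an estimated 26.7 fragments, and the log2 ratio of FPKM + 1 was -2.71. For Ap1m2, Anxa3 and Cldn6 the 40-day library was within or above the range of the normal libraries. Of the 9 genes of the group, however, 5 were below both normal libraries at 40 days and 2 were above both. Lgals1 (galectin-1) stood at 77.8 and 60.8 FPKM against 34.8 and 27.3 FPKM and was the single member among 26 listed genes of the actin cytoskeleton and adhesion. The list held other annexins and S100 genes but not Anxa3 or S100a13, so it does not cover every such gene of the set. That list's median log2 ratio was -0.32 with LIF and -0.58 after withdrawal, with 20 and 22 genes below 0, so most of the list lay on the same side without reaching 2-fold in both cultures.

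Regulators of stress and cell death made up 5 lower genes. Bbc3 (Puma), a p53 target that starts apoptosis, stood at 17.8 and 17.3 FPKM against 8.24 and 6.70 FPKM, with 20.8 FPKM at 40 days. It was the single member among the 16 listed p53 targets that met the filters. That list did not hold Sfn, so it does not cover every p53-linked gene of the set. The median log2 ratio of the list was -0.44 with LIF and -0.50 after withdrawal, with 11 and 12 genes below 0. Sfn (14-3-3 sigma), which holds back the cell cycle, stood at 47.7 and 30.6 FPKM against 20.1 and 9.04 FPKM. The other 3 were Gadd45b, Jun and the zinc finger factor Klf6. Gadd45b stood at 11.6 and 6.60 FPKM against 3.51 and 1.69 FPKM. Jun, a subunit of the AP-1 transcription factor, stood at 3.92 and 5.15 FPKM against 1.33 and 1.55 FPKM. At 40 days it stood at 16.3 FPKM, 1.49 on the log2 scale above the highest of the other libraries. No member came from the lists of nucleotide synthesis (22 genes), the proteasome (26), the spliceosome core (24), whose medians lay between -0.03 and 0.05, or glycolysis with glucose uptake (15 genes, medians 0.03 and -0.11). With backgrounds of 0.293% and 0.679%, a count of 0 in lists this short is near the background.

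The membrane transporters Slc39a10 (zinc), Slc12a4 (potassium and chloride) and Abcb1b (drug efflux) were lower by 2.15 to 2.70 times. Slc39a10 stood at 13.7 and 14.1 FPKM against 5.57 and 5.96 FPKM, with 2.19 FPKM at 40 days. The remaining 13 lower genes were of mixed or little-known function, with folds of 2.19 to 8.11. They were Trim11, Yae1d1, Soga3, Kbtbd11, Zcchc2, Fam107b, Zyg11b, Fryl, Tmem106c, Htra1, 1700007K13Rik, Fam178b and Tedc1. Soga3 stood at 9.94 and 8.80 FPKM against 2.61 and 1.53 FPKM, with 0.380 FPKM at 40 days. Just inside the limit were Klf6, Cbr3 and Bbc3, and just outside it Arhgap8 at log2 ratios of -0.999 and -1.27, Gmnn at -0.999 and -1.04 and Klc1 at -1.47 and -0.998.

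**Figure D3:**
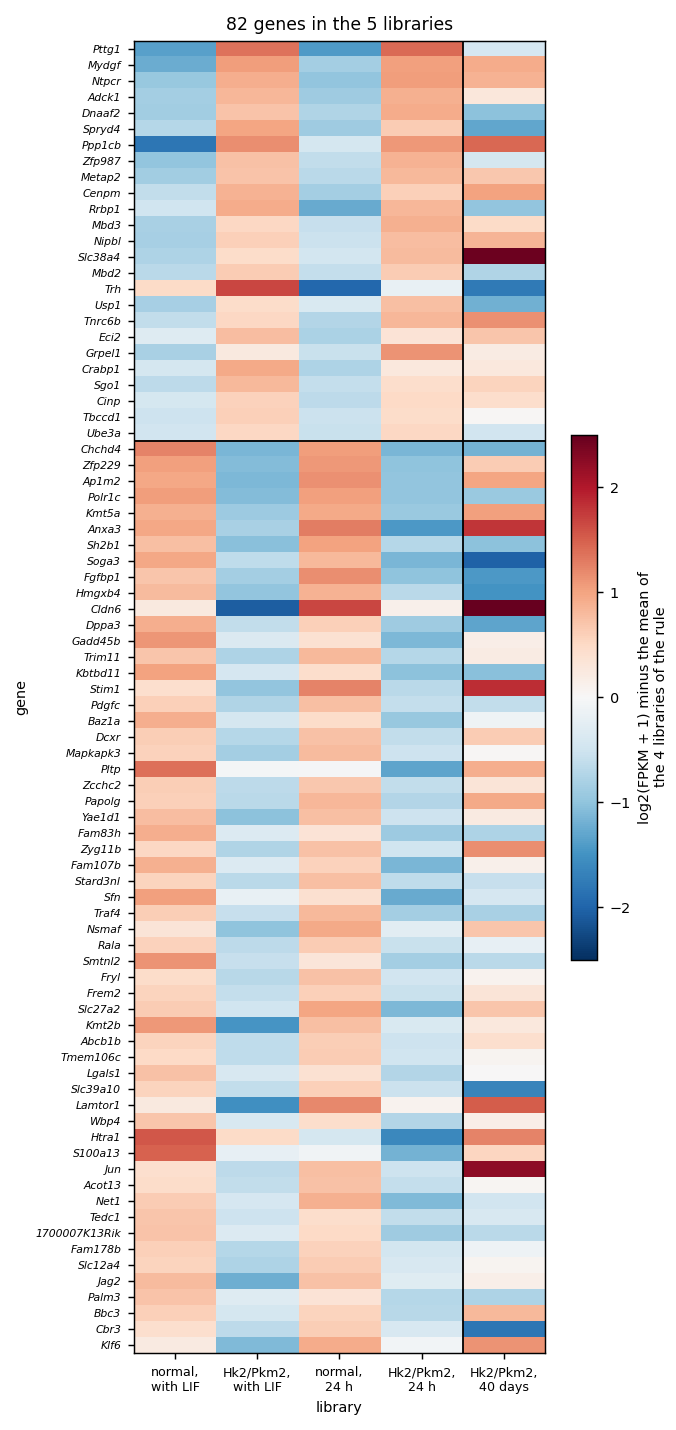
The genes of the set by library (82 of 83 drawn), higher genes above the line and lower genes below it, each set ordered by the smaller of its 2 ratios. Colour is log2(FPKM + 1) minus the mean of the 4 libraries that chose the genes, so the first 4 columns alternate by construction, while the fifth column (40 days) does not keep to either pattern.

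Several differences rest on the division of fragments between transcripts. A transcript of Cenpm, Nipbl, Tnrc6b and Ube3a was listed at 0 in both normal libraries and at 1.13 FPKM or more in both labelled ones. For Ube3a it was at 0 at 40 days as well, while its other transcript stood at 7.46 and 7.10 FPKM against 12.5 and 10.2 FPKM. Among the lower genes, a transcript of Zcchc2 stood at 2.72 and 2.40 FPKM in the normal libraries and at 0 in both labelled ones. Of the 2 Sh2b1 transcripts, 1 stood at 13.8 and 11.3 FPKM in the normal libraries. It stood at 3.28 FPKM in labelled cells with LIF and at 0 after withdrawal and at 40 days. The other was at 0 in both cell types with LIF, then at 5.24 and 4.38 FPKM in normal and labelled cells after withdrawal. Cufflinks estimates such shares, and a 0 may be an estimate that did not succeed. Single-transcript genes were 17 of the 25 higher (68.0%) and 52 of the 58 lower genes (89.66%), beside 78.29% of all genes that met the filters.

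Position on the chromosomes set 6 of the lower genes apart. The pattern was noticed after the values were seen, and it is described with no test. Net1, Klf6, Rala, Yae1d1, Stard3nl and Acot13 all lie on chromosome 13 below 26 Mb (mm9), among 43 expressed genes other than histone genes that run from Gdi2 to Mrs2. Of these 43 genes 38 (88.37%) were lower in the labelled cells in both cultures, beside 36.47% of 8048 genes on the other autosomes. With the 27 histone genes of the interval included, 49 of 70 (70.0%) were lower in both, and of the histone genes alone 40.74%. The 43 genes had a median log2 ratio of -0.78 with LIF and -0.89 after withdrawal. Without the 6 genes the other 37 had medians of -0.71 and -0.78, so the shift was not set by the selected genes.

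The shift ended between Mrs2, which ends at position 25112248, and Cdkal1, which starts at 29283615. From there on, the 258 expressed genes of the chromosome had medians of -0.01 and 0.01. The 27 histone genes within the interval had medians of -0.46 and 0.07. Gdi2, a regulator of Rab proteins at the start of the interval, stood at 134 and 154 FPKM in the normal libraries, 73.1 and 72.8 FPKM in the labelled ones and 81.8 FPKM at 40 days. Gmnn (geminin), just outside the limit above, also lies there, at 76.9 and 70.7 FPKM against 38.0 and 33.9 FPKM, with 26.5 FPKM at 40 days. In the 40-day library the 43 genes had medians of -0.67 and -0.90 against the 2 normal libraries. DNA copy number was not measured.

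Among the 6 selected genes of the interval, Stard3nl, a protein of late endosomes, stood at 37.6 and 43.3 FPKM against 15.5 and 15.8 FPKM, with 16.6 FPKM at 40 days. Rala, a small GTPase of exocytosis, stood at 19.2 and 19.9 FPKM against 7.56 and 8.22 FPKM, with 10.7 FPKM at 40 days. Acot13, a thioesterase of acyl-CoA, stood at 27.0 and 32.8 FPKM against 12.3 and 12.5 FPKM, with 20.1 FPKM at 40 days. All 3 stayed below the normal libraries at 40 days, as did Net1 and Yae1d1, while Klf6 was not. It stood at 12.6 and 21.2 FPKM against 4.42 and 10.05 FPKM, and at 24.3 FPKM at 40 days. Tdp2, whose start lies 162 bases from that of Acot13 on the other strand, stood at 36.7 and 31.8 FPKM against 17.0 and 15.9 FPKM.

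**Figure D4:**
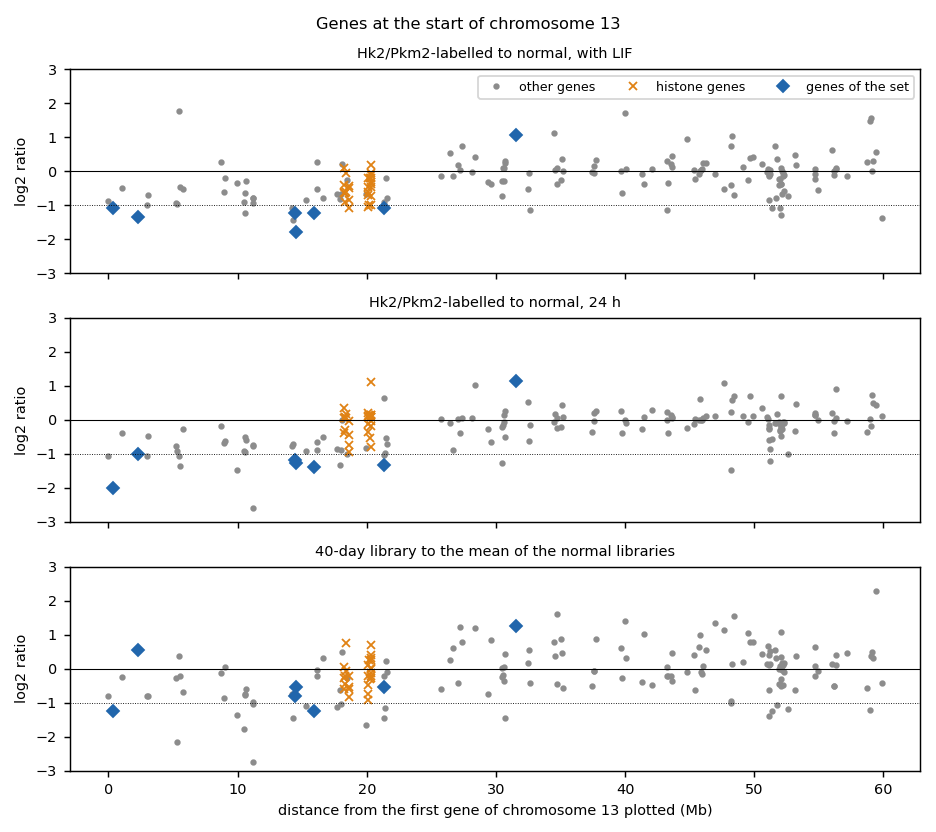
Log2 ratios of FPKM + 1 along chromosome 13 by distance from its first expressed gene, for labelled against normal cells in each culture (top and middle) and for the 40-day library against the mean of both normal libraries (bottom). Grey points (other genes) and blue diamonds lie mostly below 0 at the left end and scatter around 0 to the right of the gap, with the exception of Klf6 at 40 days and of Eci2, a higher gene that lies outside the interval.

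The same scan was made over all autosomes. Over 8110 windows of 15 neighbouring expressed autosomal genes, the median ratio was at -0.5 or less in both cultures in 26, all on chromosome 13 within the first 35 Mb, and at 0.5 or more in both in 0. With a limit of 0.25, 72 windows were lower in both, of which 36 lay in those 35 Mb, and 0 were higher. Smaller shifts downward were thus found on other chromosomes as well. The lowest window outside chromosome 13, on chromosome 12 from Kif26a to Tedc1, had medians of -0.47 and -0.46 and held Jag2 and Tedc1. Around the 52 lower genes elsewhere, the 4 expressed neighbours on each side had a median ratio whose middle value was -0.05 with LIF and -0.03 after withdrawal. Around the 24 higher genes with a position in mm9 it was 0.00 and -0.03. Next to Chchd4, Tmem43, which starts 280 bases away on the other strand, stood at 10.3 and 10.6 FPKM against 8.29 and 9.10 FPKM. Elf1, which starts 74 bases from Wbp4 on the other strand, stood at 6.97 and 5.02 FPKM against 1.79 and 3.23 FPKM. Over the 5 such partners that met the filters, Tdp2 among them, log2 ratios were -1.52 to -0.09 with LIF. After withdrawal they were -0.96 to -0.14, and 0 partners changed at least 2-fold with the nearby gene in both cultures.

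Most of these genes differed by less than 2-fold between the culture with LIF and that after 24 hours without it. In normal cells 6 of the 83 were at least 2-fold different between the cultures (7.23%, beside 6.85% of all 8543 genes), and in labelled cells 8 were (9.64%, beside 8.66%). These shares are near the background. At least 2-fold higher after withdrawal in both cell types was only Cldn6 (0.925% of all genes), and lower in both were Trh, Htra1 and Pltp (1.67%). Htra1, a secreted serine protease, stood at 22.9 and 5.01 FPKM in normal cells and at 10.3 and 1.67 FPKM in labelled cells, with 18.1 FPKM at 40 days.

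For Trh and Htra1 the 2 cell types overlapped across cultures, since the change with culture was larger than the difference between cell types. For the other 81 genes every labelled library lay on 1 side of both normal libraries. With 4 libraries and 1 residual degree of freedom, limma's test of withdrawal called 0 of 9590 genes at an adjusted p of 0.05 (0% of those tested), and 1154 had an unadjusted p below 0.05. Among the 83 genes 17 had such an unadjusted p. The fit used the 4 libraries that chose these genes, so their p-values and intervals are not independent of the selection. The log2 change with withdrawal was -2.15 for Trh (95% interval -2.896 to -1.40, adjusted p = 0.324 by limma), -2.04 for Htra1 (adjusted p = 0.324 by limma) and 1.81 for Cldn6 (adjusted p = 0.345 by limma). For Pltp the log2 change was -1.34. These genes were named because they differed at least 2-fold in the same direction in both cell types, so that agreement adds no support.

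The library at 40 days without LIF was not used for the ratios, although both normal libraries to which it is compared were, and every gene had to be above 0 in it. Of the 25 higher genes 19 (76.0%) were above both normal libraries at 40 days, beside 42.6% of all genes, and 4 were below both (Dnaaf2, Mbd2, Spryd4, Usp1). Of the 58 lower genes 41 (70.69%) were below both normal libraries, beside 39.4% of all genes, and 10 were above both. Because the same normal libraries chose the genes, these shares are not independent of the selection.

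On a scale from 0 at the mean of the normal libraries to 1 at the mean of the labelled ones, the median position of the 40-day library was 0.72 for the higher and 0.43 for the lower genes. It was nearer to the labelled libraries for 16 of 25 higher and 24 of 58 lower genes. Of the 10 lower genes above both normal libraries at 40 days, Cldn6, Jun, Stim1, Anxa3 and Zyg11b lay farthest above, and Kmt5a, Bbc3, Papolg, Klf6 and Lamtor1 made up the rest. The lower genes farthest below the other libraries were Cbr3, Slc39a10 and Soga3, by 1.15, 1.04 and 0.88 on the log2 scale. The 40-day library also carried the endoderm markers given above, with Gata4 at 25.6 FPKM and Dab2 at 52.0 FPKM, and the part of other cells in its values was not tested.

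**Figure D5:**
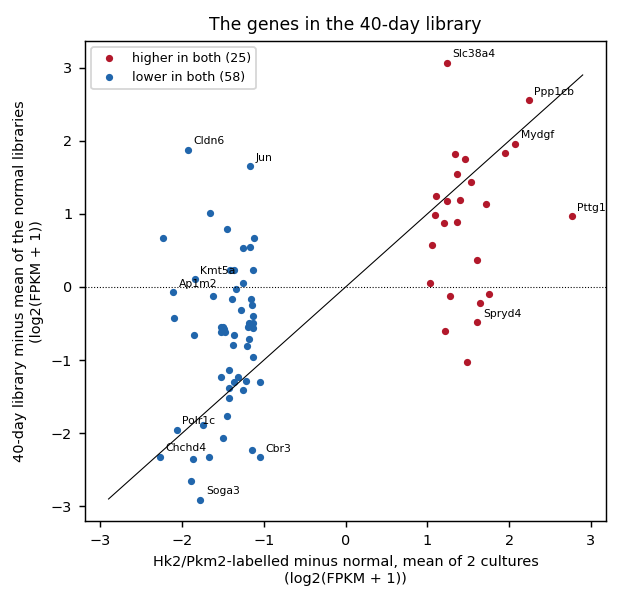
Difference of the 40-day library from the mean of the normal libraries (y axis) against the difference between the cell types averaged over both cultures (x axis), in log2(FPKM + 1), 1 point per gene. Points on the diagonal keep the labelled level at 40 days, as Mydgf, Chchd4 and Polr1c nearly do, and points on the dotted line are at the normal level, as Kmt5a and Ap1m2 nearly are.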

How the data were processed

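The deposited table holds FPKM for each RefSeq transcript in 5 libraries, which the authors normalized for transcript length and mapped fragments. TopHat2 2.0.7, Cufflinks 2.0.2 and mm9 were used, per the submitters' processing notes, and the library kit was TruSeq RNA, per the labels' protocols; kits of that name do not mark strand. FPKM are not counts, so no count model was run.

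Transcripts were paired with symbols through RefSeq (GRCm38.p6, names only), which succeeded for 28066 of 28698, and summed per gene. The 337 genes with a hyphen in any cell, genes on X and Y and 9 genes fixed by name (8 of which met the other criteria) were left out. Ratios used log2(FPKM + 1), which understates changes of low genes, whereas folds in the text are ratios of FPKM as listed. Depth was estimated from genes with 1 transcript, as the point within a set range where FPKM times length piled up. That point was taken as 1 fragment. The fullest bin held 81 to 94 of the 4443 to 4965 genes used per library, so depth and fragment numbers are rough. The fewest estimated fragments behind a value were 103 for a higher and 12.3 for a lower gene (S100a13), and 9 genes had a value resting on fewer than 100.

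Limma 3.58.1 (R 4.3.3, lmFit, eBayes with trend, Benjamini-Hochberg) was fitted to cell type and culture in 4 libraries over all genes with a mean of at least 1 FPKM and was tested on simulated data. Only withdrawal was read from it. Coordinates are from GENCODE vM1 on NCBIM37 (mm9), found for 82 of the 83 genes. Copies were searched with blastn 2.17.0 (at least 95% identity over at least 50% of the coding sequence).

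The members and gene lists were chosen with earlier results of these data known. Named with values were the 7 leading genes, the 12 largest per direction, the 3 on either side of each limit, members of a list, those changed by withdrawal in both cell types and the 5 farthest outside at 40 days per direction. A member that this rule takes is counted but not reported here by name. Other genes were named by role, place or transcripts after their values were seen.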

Additional observations from a re-analysis of the deposited data

How the results depend on the processing

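No paired analysis was possible because each group has 1 library, with no replicate number to pair. The withdrawal fit carries cell type as a factor. Leaving out 1 of the 4 libraries removes a ratio that the selection needs, so it was not run. Of 45 alternative counts, 33 were within 1.5 times of the reported one. A pseudocount of 0.1 FPKM gave 50 higher and 112 lower genes, 18 with a 2-fold withdrawal difference in both cell types, and 40 and 62 on the reported side of both normal libraries at 40 days. Keeping genes listed at 0 gave 63 and 96, a 1.5-fold limit 120 and 286, and a 3-fold limit 5 and 9. With a mean of at least 5 FPKM, 27 lower genes were below both normal libraries at 40 days. The members were found again under each setting. A smaller pseudocount also changes the withdrawal ratios themselves, and the 2 effects were not separated. Scaling to a common median kept 75 of the 83 genes (28 higher, 50 lower in all), quantile normalization 71 (26 and 46), and the most abundant transcript alone 75 (21 and 61). Limma called 0 genes for withdrawal under all 3 of its alternatives, with 1105, 1865 and 1171 at an unadjusted p below 0.05. In alternatives added after seeing the data, 52 lower genes were left without the interval of chromosome 13, of which 36 were below both normal libraries at 40 days. Without genes that have a transcript listed at 0 in 1 cell type 21 and 57 were left, and without genes with another match in the genome (Dppa3, Kmt5a, Lamtor1, Metap2, Net1, Sfn, Usp1, Yae1d1, Zfp987) 22 and 52.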
